A study of Mus musculus with 6 samples.

Results

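The genes of the cytosolic ribosomal proteins were examined in adrenals of grown female mice, in the daughters of dams given CGP 39551 (CGP) and in control daughters. They were taken as the probe sets with exactly 1 gene symbol beginning with Rpl or Rps and a digit, together with Rplp0, Rplp1, Rplp2 and Rpsa, without the S6 kinases and without symbols of pseudogenes. This gave 217 probe sets of 61 genes among the 15384 genes named by a single symbol, and each gene was described by the probe set with the highest mean of the 6 arrays. All 61 genes passed the filter on low signal. The rule used the symbols, with the mean signal only to choose among the probe sets of a gene, and the group itself was taken up with earlier results of these data known.

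CGP blocks glutamate receptors of the NMDA (N-methyl-D-aspartate) type. The dams of the CGP group received 5 mg/kg by mouth from the start of pregnancy to weaning, and for the other group the labels say only that it was the control. The C57Bl/6J daughters of both groups were killed at 21 weeks, RNA of 18 mice was pooled in each group, and 3 arrays were hybridised per group. It is not stated if these 3 came from a single pool, so errors and p-values below measure the spread between arrays, which may be technical, and the spread between mice was not measured. The values are deposited log2 signals of the arrays, and a difference of 1 on this scale is a doubling.

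Ribosomal proteins build the large and small subunits of the ribosome around the ribosomal RNAs. Their genes are short, active in every cell and expressed in near equal amounts, because each protein enters the ribosome as a single copy apart from the acidic stalk proteins. Their mRNAs begin with a C followed by a run of C and T (the terminal oligopyrimidine or TOP motif), through which the mTOR kinase and the Larp1 protein adjust their translation together. The adrenal cortex synthesises steroids from cholesterol and the medulla synthesises catecholamines, and both depend on this machinery for their enzymes.

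The start of transcription is shown for members with a run of C and T near it. The shared start motif is the feature that defines these mRNAs as a group. The members shown lie toward both ends of the range of differences, apart from Rpl5 (−0.015). RefSeq promoter windows (assembly GRCm38.p6) of 250 bases before and 50 bases after the annotated start were found for 49 of the 61 genes, and for 43 of the 54 that encode subunits of the ribosome. The bases from 60 before to 20 after the start are printed 5′ to 3′ on the strand of the gene. Capitals mark runs of at least 7 C or T beginning with C that lie within 20 bases of the start. In Rpl13 and Rpl5 the run lies wholly before the annotated start, so it is no part of the mRNA as annotated. The same holds for the first run of Rps15a.

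Rps15a, chr7:118116128-118116207, minus strand: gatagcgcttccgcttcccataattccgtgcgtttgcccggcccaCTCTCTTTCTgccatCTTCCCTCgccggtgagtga
Rpl13, chr8:123102290-123102369, plus strand: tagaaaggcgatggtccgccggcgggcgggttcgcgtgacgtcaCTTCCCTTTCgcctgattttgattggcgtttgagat
Rpl5, chr5:107900468-107900547, plus strand: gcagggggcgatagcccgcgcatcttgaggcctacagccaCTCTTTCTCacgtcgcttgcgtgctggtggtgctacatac
Rps6, chr4:86857348-86857427, minus strand: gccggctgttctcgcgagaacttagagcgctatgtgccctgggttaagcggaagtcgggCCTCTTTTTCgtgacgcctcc
Rpl14, chr9:120571457-120571536, plus strand: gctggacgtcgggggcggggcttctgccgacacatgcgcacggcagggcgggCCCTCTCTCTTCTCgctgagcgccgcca

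Such a run was present in 20 of the 43 subunit genes (46.5%) and in 18.6% of 26976 other genes with a window. A C at the annotated start itself, followed by at least 4 C or T, was found in 9 of the 43 (20.9%) and in 2.46% of the other genes. The 20 include genes with a run wholly before the start, such as Rpl13 and Rpl5, so they are not a set with an annotated TOP motif. The median log2 difference (CGP minus control) was −0.059 in the 20 genes with the run and −0.058 in the 23 without it, close to each other. The motif CCGGAAG, the core of ETS factor sites, was found on either strand of the 300-base window in 16 of the 43 genes (37.2%) against 9.07% of the other genes, and the GC box GGGCGG in 25 (58.1%) against 35.9%. The TATAAA motif occurred in 4 (9.30%) against 14.2%. The ETS core, in capitals, is shown for 1 gene near each end of the range.

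Rps21, chr2:180257319-180257398, plus strand: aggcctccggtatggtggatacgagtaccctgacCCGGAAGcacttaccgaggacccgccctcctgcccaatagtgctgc
Rps3a1, chr3:86142649-86142728, minus strand: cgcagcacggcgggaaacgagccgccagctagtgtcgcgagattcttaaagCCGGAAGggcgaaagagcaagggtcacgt

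Rps21 had the most negative difference of all members and Rps3a1 one of the most positive, and both windows contained the motif. The 16 genes with CCGGAAG had a median of −0.066 with 13 lower in the CGP group, and the 27 without it a median of −0.038 with 25 lower. A match is a stretch of letters in a window and does not show that a factor was bound.

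The 61 ribosomal protein genes lay slightly lower in the CGP group as a body, and none passed the test as a single gene. By sign, 53 of 61 (86.9%) were lower and 8 higher, against 54.4% lower among all 16034 probe sets tested. The median log2 difference (CGP minus control) was −0.063 for the members and −0.011 for all tested probe sets. Other genes shorter than 5000 bp, a length that most members share, had a median of −0.062, with 76.2% lower. With limma, 0 of 61 members had an adjusted p under 0.05, where 3.53% of all tested probe sets did. The lowest adjusted p among the members was 0.0614. Where limma's prior was allowed to follow a trend with signal and made robust, 8 members were called, all of them lower (13.1%), beside 7.86% of all tested probe sets. At an unadjusted p under 0.05 there were 11 members (18.0%), each of them lower, beside a background of 8.52% for that direction.

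All 3 CGP arrays lay below all 3 control arrays in 23 members (37.7%), where 12.6% of all tested probe sets did so. In 0 of 61 members did all 3 CGP arrays lie above the controls, where the background was 13.7%. Counted in either direction, the groups did not overlap in 26.3% of all tested probe sets. The 95% confidence interval stayed within a 1.2-fold change in either direction for 51 of the 61 genes, so that a larger difference of these genes was outside the interval at this spread between arrays. The single-gene differences ran from −0.21 (Rps21) to 0.17 (Rpl14), and the median standard error (SE) was 0.05.

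**Figure D1:**
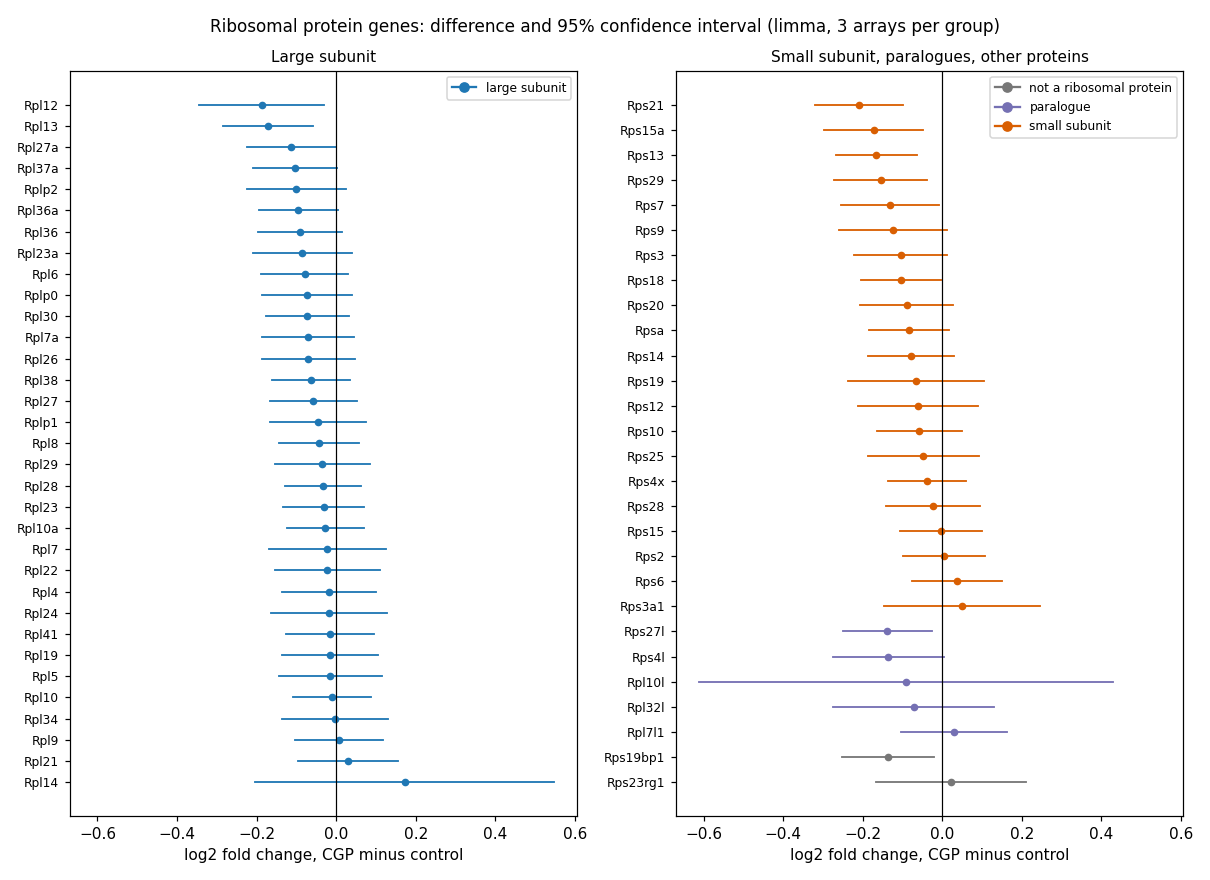
Log2 difference, CGP minus control, of each ribosomal protein gene (point) with its 95% confidence interval from limma (line), for large subunit genes on the left and small subunit genes, paralogues and the 2 genes that encode no ribosomal protein on the right. Of the 61 points, 53 lie left of 0, and the widest intervals belong to Rpl10l and Rpl14.

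On single arrays the shift was seen in every array of each group. With each gene centred on its own mean of 6 arrays, the member median was 0.053 on control 1, 0.021 on control 2 and 0.028 on control 3. It was −0.044 on CGP 1, −0.017 on CGP 2 and −0.031 on CGP 3. The 3 control medians lay above 0 and the 3 CGP medians below it. Control 1 was the highest of the 6 arrays for 27 members, and CGP 1 the lowest for 26.

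Taken array by array, the median difference of the members was negative in all 9 pairs of a CGP with a control array, from −0.095 (CGP 1 with control 1) to −0.039 (CGP 2 with control 2). Between arrays of the same group it was −0.037 for control 2 minus control 1 and 0.039 for CGP 2 minus CGP 1. The smallest of the 9 differences between groups was therefore of the same size as the largest differences within a group. Without control 1 the member median was −0.048 with 46 genes lower, and without CGP 1 it was −0.055 with 43 genes lower.

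**Figure D2:**
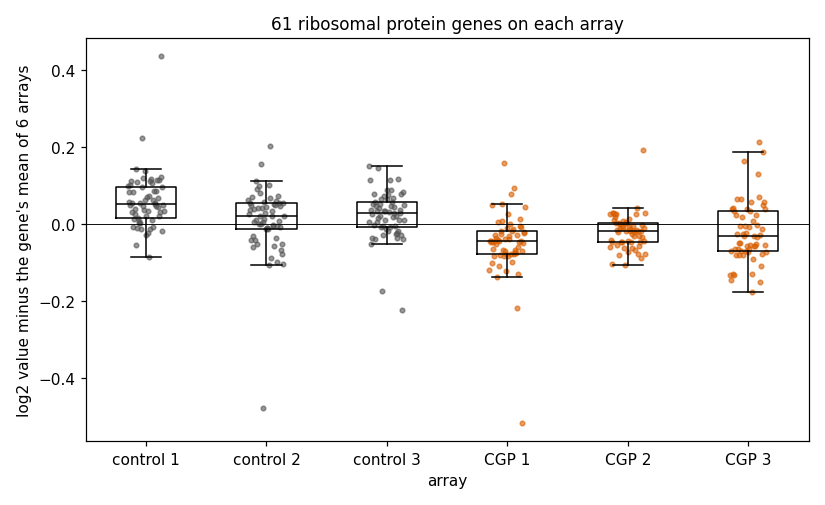
Log2 value of each of the 61 genes minus its mean of 6 arrays (vertical axis) on each array (horizontal axis), with boxes for the quartiles, a line for the median and whiskers to the last point within 1.5 box lengths. The medians of the 3 control arrays lie above 0 and those of the 3 CGP arrays below it. The box of CGP 1 lies below all 3 control boxes. The box of CGP 2 reaches the lower ends of those of control 2 and control 3, and the box of CGP 3 overlaps all 3.

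Of the 33 large subunit genes, 30 were lower and 3 higher, with a median of −0.043. In 10 of them (30.3%) all CGP arrays lay below all controls, and in 0 above, beside the 12.6% for that direction and 26.3% for either direction over all tested probe sets. The stalk, which recruits the translational GTPases to the ribosome, was represented by Rplp0, Rplp1 and Rplp2 and by Rpl12 at its base. All 4 had negative differences (median −0.087), and none passed the test. Rpl12 read 8.09, 8.30 and 8.19 on the control arrays and 8.02, 8.07 and 7.92 on the CGP arrays. The highest CGP array was just below the lowest control array, and the difference was −0.19 (SE 0.07, limma adjusted p = 0.189). Rplp2, which had one of the dimmest probe sets of the members, read 7.87, 7.88 and 7.84 in the controls and 7.76, 7.84 and 7.68 in the CGP group. The second CGP array reached the range of the controls, and the difference was −0.10 (SE 0.05, adjusted p = 0.351).

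Rplp0, the scaffold of the stalk and a common reference gene, read 13.51, 13.63 and 13.56 on the control arrays and 13.49, 13.51 and 13.48 on the CGP arrays. The groups met at the lowest control array, and the difference was −0.07 (SE 0.05, adjusted p = 0.445). Rplp1, its acidic partner, read 13.56, 13.70 and 13.64 in the controls and 13.62, 13.59 and 13.56 in the CGP group, with overlap and a difference of −0.05 (SE 0.05, adjusted p = 0.670). These probe sets, with that of Rps6, had the 3 highest mean signals among the members. A probe set's signal depends on its probes, so this is no order of mRNA levels.

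Around the exit of the peptide tunnel lie the products of Rpl19, Rpl22, Rpl23a and Rpl26. All 4 were lower by sign (median −0.046), and the groups overlapped in the brightest probe set of each. Over all their probe sets, every CGP array lay below every control in 9 of 13 for Rpl23a and 3 of 7 for Rpl19. The share over all tested probe sets was 12.6%. Rpl22, whose protein also binds RNA outside the ribosome and is needed for T cell development, read 9.81, 9.82 and 9.86 in the controls and 9.91, 9.75 and 9.76 in the CGP group. A CGP array was the highest of the 6, and the difference was −0.02 (SE 0.06, adjusted p = 0.864).

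The other 25 large subunit genes had a median of −0.033, with 22 lower. Rpl13 had the most negative difference among them. Its control arrays read 11.38, 11.38 and 11.43 and its CGP arrays 11.27, 11.25 and 11.16, so the groups did not overlap (difference −0.17, SE 0.05, adjusted p = 0.109). Rpl36a, on the X chromosome, read 12.23, 12.22 and 12.20 in the controls and 12.10, 12.15 and 12.12 in the CGP group. Its groups were also separate, with a difference of −0.10 (SE 0.04, adjusted p = 0.271).

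Rpl5 binds the 5S ribosomal RNA and, when ribosome assembly fails, the p53 regulator Mdm2. It read 11.30, 11.15 and 11.21 in the controls and 11.14, 11.24 and 11.24 in the CGP group. The groups overlapped throughout, and the difference was −0.01 (SE 0.06, adjusted p = 0.908). Rpl41, which encodes the smallest ribosomal protein, read 13.09, 13.11 and 13.18 in the controls and 13.14, 13.07 and 13.11 in the CGP group. Its difference was −0.02 (SE 0.05, adjusted p = 0.883), with overlap.

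The 3 large subunit genes above 0 were Rpl14, Rpl21 and Rpl9. Rpl14 had the most positive difference of all members and also one of the widest intervals. It read 8.57, 7.87 and 8.34 on the control arrays and 8.51, 8.29 and 8.51 on the CGP arrays. Control 2 stood apart from the other 5 arrays, and the difference of 0.17 (SE 0.16, 95% interval −0.20 to 0.55, adjusted p = 0.596) became −0.02 without that array. Rpl21 read 13.36, 13.20 and 13.32 in the controls and 13.28, 13.34 and 13.35 in the CGP group, a difference of 0.03 (SE 0.05, adjusted p = 0.806). Here too control 2 was the lowest array, and without it the difference was −0.02.

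Of the 21 small subunit genes, 18 were lower and 3 higher, with a median of −0.079. In 11 (52.4%) all CGP arrays lay below all controls, and in 0 above. Over all tested probe sets the share was 12.6% for that direction and 26.3% for either direction. The 10 genes of the head of the subunit were all lower by sign (median −0.063). Of the 11 genes of the body, 8 were lower (median −0.083). Rps21 had the most negative difference of the 61 members. Its control arrays read 10.14, 10.11 and 10.20 and its CGP arrays 9.93, 9.99 and 9.91. The groups were separated by more than the spread within either, and the difference was −0.21 (SE 0.05, 95% interval −0.32 to −0.10), a ratio of 0.865, with a limma adjusted p of 0.0614. Rps21 passed the threshold under several alternative settings, among them an adjusted p of 0.0421 after another quantile normalisation. In 12 of 17 alternatives it did not pass. The adjusted p was 0.132 for the mean of its 2 probe sets and 0.222 with the replicate number as a block. In its other probe set the groups overlapped, and the difference was −0.20 (SE 0.10, adjusted p = 0.335).

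Rps15a read 8.98, 8.95 and 8.85 in the controls and 8.70, 8.79 and 8.78 in the CGP group (difference −0.17, SE 0.05, adjusted p = 0.138). Rps13 read 10.84, 10.78 and 10.79 in the controls and 10.65, 10.61 and 10.65 in the CGP group (difference −0.17, SE 0.04, adjusted p = 0.0914). Both encode proteins of the body, and in both every CGP array lay below every control array. Rps29, a zinc-binding protein of the head, read 11.14, 11.09 and 11.17 in the controls and 11.01, 11.01 and 10.91 in the CGP group, again without overlap (difference −0.15, SE 0.05, adjusted p = 0.148).

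Rpsa, a protein of the small subunit that is also known as a laminin receptor, read 11.87, 11.87 and 11.84 in the controls and 11.74, 11.80 and 11.79 in the CGP group. The difference was −0.08 (SE 0.04, adjusted p = 0.340) and the groups did not overlap. Rps6, the substrate of the S6 kinases downstream of mTOR, was among the 3 small subunit genes above 0. It read 13.63, 13.56 and 13.56 in the controls and 13.56, 13.63 and 13.67 in the CGP group, with overlap and a difference of 0.04 (SE 0.05, adjusted p = 0.719).

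Rps3a1 had the most positive difference of the small subunit genes. It read 8.18, 8.04 and 8.11 in the controls and 8.07, 8.06 and 8.35 in the CGP group. The third CGP array alone lay above the controls, and the difference of 0.05 (SE 0.08, adjusted p = 0.778) was −0.04 without it. The third gene above 0 was Rps2, with a difference of 0.0048 (SE 0.04), named after its values were seen.

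Of the 61 genes, 5 were paralogues and 2 encode proteins that are no part of the ribosome. Rps27l, a paralogue of Rps27 and a known p53 target, read 11.58, 11.49 and 11.52 in the controls and 11.36, 11.44 and 11.37 in the CGP group. The groups did not overlap, and the difference was −0.14 (SE 0.05, adjusted p = 0.171). Rpl7l1, a paralogue of Rpl7 that acts in assembly of the large subunit, read 11.05, 10.87 and 10.97 in the controls and 10.98, 10.96 and 11.04 in the CGP group (difference 0.03, SE 0.06, adjusted p = 0.816).

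Rpl10l, a retrogene of Rpl10 known for its expression in testis, was not above background on any of the 6 arrays. It read 6.37, 5.85 and 5.71 in the controls and 5.42, 6.12 and 6.12 in the CGP group, and no difference could be measured there. Rps23rg1, a retroposed gene derived from Rps23, read 7.05, 7.22 and 6.88 in the controls and 7.11, 7.07 and 7.03 in the CGP group. The CGP arrays lay within the range of the controls (difference 0.02, SE 0.08, adjusted p = 0.906). The 39 members not described one by one had differences from −0.14 to 0.0068, with 37 lower and 2 higher, and a lowest adjusted p of 0.193 (limma). In 14 of the 39 all CGP arrays lay below all controls, beside 12.6% of all tested probe sets. Among the 39 was Rps19bp1, which encodes a protein that binds Rps19 and is no ribosomal protein, at −0.14 (named after its values were seen). With the 54 subunit genes alone, 48 were lower and the median was −0.059.

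Ribosomal protein genes have many near-identical processed copies in the genome, and 39 of the 61 genes had more than 1 probe set. Several probe sets of a gene can share probes or transcripts, so they are repeated readings of a gene and not independent genes. Of the 38 genes with more than 1 distinct profile, all probe sets were lower in 33, all were higher in 1 and the signs were mixed in 4 (Rpl21, Rpl5, Rpl9 and Rps2, the last pair named after their values were seen). All 9 probe sets of Rpl13 had negative differences, from −0.18 to −0.12, and in each of the 9 the CGP arrays lay below the controls. The same was true of the 7 probe sets of Rps18 (−0.12 to −0.08, named after its values were seen) and the 5 of Rpsa (−0.13 to −0.08). All 8 probe sets of Rps6 had positive differences, from 0.02 to 0.08, and the groups overlapped in each.

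The standard deviation of the differences among the probe sets of 1 gene was 0.022, and that of the gene medians was 0.051, over 182 distinct probe sets. Readings of a gene thus lay closer to each other than the genes did. Over all 217 probe sets, 193 were lower and 24 higher, and 0 passed an adjusted p of 0.05 by limma. At an unadjusted p under 0.05 there were 41, each of them lower. Of all tested probe sets, 8.52% were so in that direction and 19.3% in either direction. A further 239 probe sets carried several symbols of which at least 1 met the rule. Of these 187 were lower and 52 higher, with a median of −0.042, and 0 passed the test (lowest adjusted p 0.130).

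**Figure D3:**
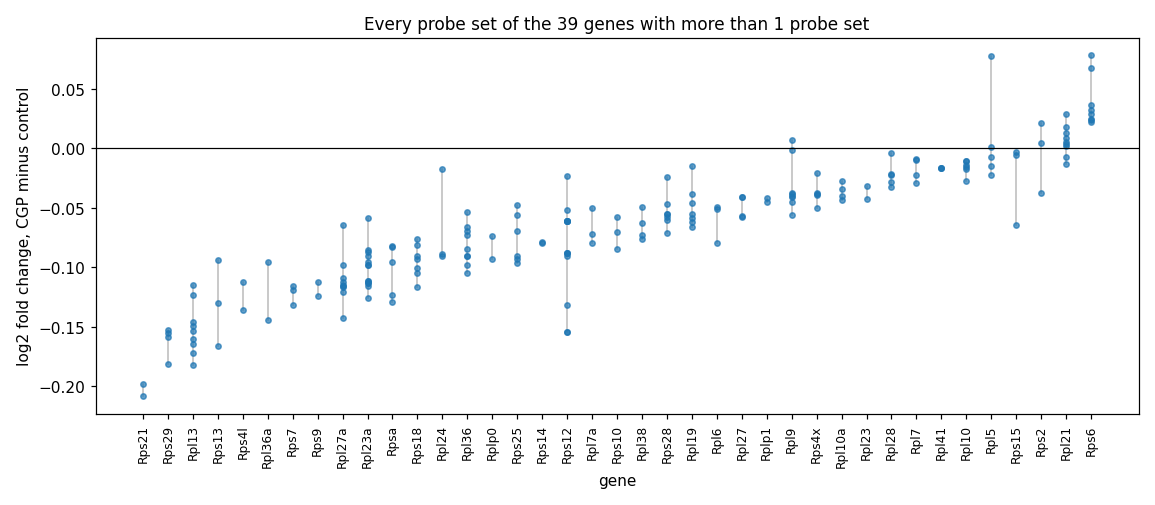
Log2 difference, CGP minus control, of every probe set (point) of the 39 genes with more than 1 probe set, ordered by the gene's median, with a grey line from the lowest to the highest. The points of Rpl13 and Rps21 all lie below −0.11 and those of Rps6 all above 0.

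The difference between the groups varied with the length of the gene across the whole table, and ribosomal protein genes are short. Their median length from start to end was 3269 bp, against 20988 bp for all genes tested. Among other genes, the median log2 difference was −0.061 for those under 1000 bp, −0.076 from 1000 to 2000 bp and −0.057 from 3000 to 5000 bp. It was −0.026 from 10000 to 20000 bp, 0.0072 from 20000 to 50000 bp and 0.051 in the longest class. The sign of the median thus turned between 10000 and 50000 bp.

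The 2293 other genes shorter than 5000 bp had a median of −0.062, with 76.2% lower. The 50 ribosomal protein genes of that length had a median of −0.071, with 44 (88.0%) lower. Within narrower classes the members were not more negative throughout. Their median was −0.039 from 1000 to 2000 bp and −0.018 from 5000 to 10000 bp, where other genes had −0.076 and −0.048, and −0.072 from 2000 to 3000 bp and −0.060 from 3000 to 5000 bp, where other genes had −0.068 and −0.057. In 40.0% of the 50 members under 5000 bp all CGP arrays lay below all controls, where 19.5% of the other short genes did so. Of other genes that were both under 10000 bp and had a mean signal of at least 11, 28.2% did so, and 65.1% of these 372 genes were lower (median −0.028). What part gene length or signal had in the members' shift was not tested.

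**Figure D4:**
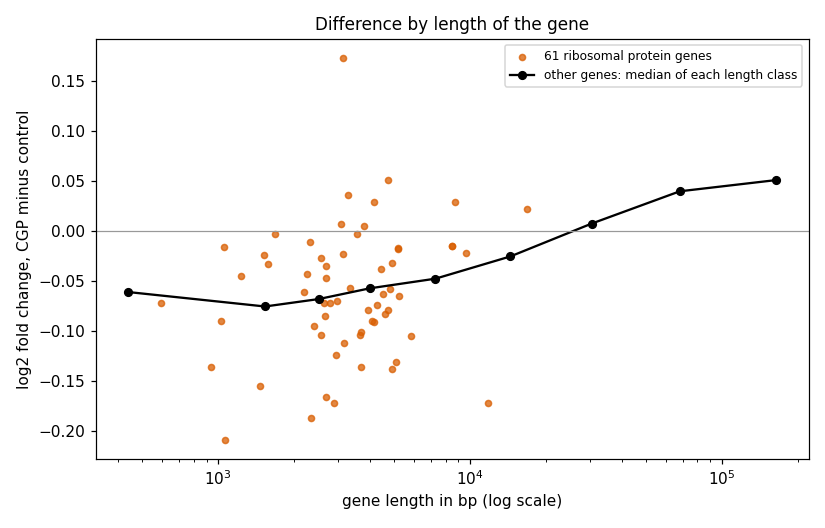
Log2 difference, CGP minus control (vertical axis), against the length of the gene in bp on a log scale, for the 61 ribosomal protein genes (orange) and as medians of 9 length classes of all other tested genes (black). The members scatter around the black line, which runs from −0.061 in the shortest class to 0.051 in the longest.

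Other genes of protein synthesis were set beside the members. The mitochondrial ribosome has its own proteins, encoded in the nucleus. Of its 78 genes tested, 67 (85.9%) were lower, with a median of −0.0745. In 27 (34.6%) the CGP arrays lay below the controls, beside 12.6% of all tested probe sets. In this list 1 gene passed the test, where 3.53% of all tested probe sets did. Mrpl21, of the large mitochondrial subunit, read 7.83, 7.82 and 7.80 in the controls and 7.61, 7.56 and 7.49 in the CGP group, and fell by 0.26 on the log2 scale (SE 0.05, adjusted p = 0.0271). Its call was lost without control 2, control 3, CGP 2 or CGP 3 (adjusted p from 0.0694 to 0.124). These genes too were shorter than most, with a median length of 7806 bp. Of the 54 under 10000 bp 48 were lower, and of the 24 longer genes 19 were.

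Genes that assemble or use the ribosome were split between the directions. Of 47 initiation and elongation factors, 19 were lower and 28 higher (median 0.022), and 0 passed the test, with 7 at an unadjusted p under 0.05, as were 19.3% of all tested probe sets in either direction. The 35 initiation factors had a median of 0.022 and the 12 elongation factors a median of −0.0093, with 6 lower and 6 higher. Of 69 genes of ribosome biogenesis, which process ribosomal RNA and build the subunits in the nucleolus, 31 were lower and 38 higher (median 0.026), and 0 passed, with 16 (23.2%) at an unadjusted p under 0.05, near the 19.3% of all tested probe sets. In the biogenesis list the sign went with length, since 16 of 22 genes under 10000 bp were lower and 15 of 47 longer genes were. Of 15 subunits and factors of RNA polymerase I, which transcribes the ribosomal RNA, 7 were lower (median 0.014), and 0 passed, with 4 at an unadjusted p under 0.05. Whether these lists differed from the members was not tested.

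Translation factors and other mRNAs that begin with the same TOP motif were in a list of 15. Of these 6 were lower and 9 higher (median 0.023), and 1 passed the test, where 3.53% of all tested probe sets did. Vim, which encodes the intermediate filament vimentin, read 10.88, 10.85 and 10.68 in the controls and 11.10, 11.10 and 11.14 in the CGP group, a rise of 0.31 (SE 0.06, adjusted p = 0.0372). A further list held 20 genes that control ribosomal protein synthesis (mTOR and its partners, S6 kinases, Myc, p53 and others). Of these 9 were lower (median 0.013) and 1 passed, beside the same 3.53% of all tested probe sets. Rps6ka3, the RSK2 kinase, which phosphorylates Rps6, read 8.11, 7.68 and 7.86 in the controls and 8.27, 8.51 and 8.44 in the CGP group, a rise of 0.53 (SE 0.11, adjusted p = 0.0449). Both calls were lost without any single array other than control 1, with adjusted p from 0.0644 to 0.174. Fau, a ribosomal protein gene outside the symbol rule, read 13.07, 13.07 and 13.11 in the controls and 13.05, 12.99 and 12.92 in the CGP group, without overlap (difference −0.09, SE 0.05, adjusted p = 0.350).

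**Figure D5:**
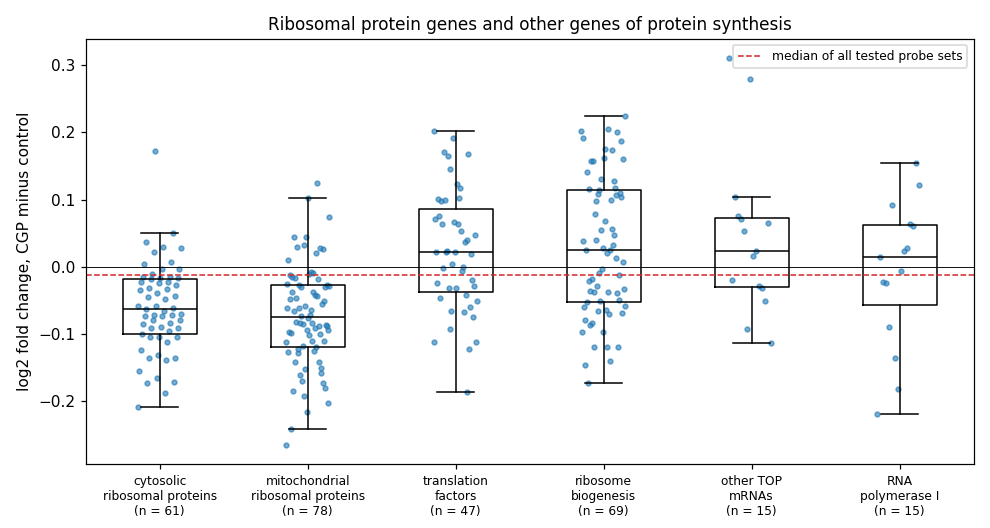
Log2 difference, CGP minus control, of each gene (point) in 6 groups of genes of protein synthesis, with boxes for the quartiles and the median and whiskers to the last point within 1.5 box lengths. The medians of the cytosolic and mitochondrial ribosomal proteins (−0.063 and −0.0745) lie below the dashed line of all tested probe sets (−0.011), and the other 4 medians lie above it.

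Markers of other tissues moved with the groups on the same arrays. Of 29 hepatocyte genes tested, 27 were called lower in the CGP group (median −0.79), and their summed linear signal was 52437 to 53211 on the control arrays and 35975 to 36287 on the CGP arrays. Of 17 adipocyte genes, 15 were called higher (median 0.54), with summed signals of 38854 to 39841 and 53977 to 54486. Neither range overlapped between the groups. Of 10 genes of the adrenal cortex, which define the adrenal label, all 10 had positive differences (median 0.059). Of these 1 was called higher (Cyp11b2, aldosterone synthase), where 3.53% of all tested probe sets were called. In 5 all CGP arrays lay above all controls, beside 13.7% of all tested probe sets. The summed signal of the 10 cortex genes was 92665 to 96270 on the control arrays and 98089 to 101710 on the CGP arrays, again without overlap. Of 9 genes of the medulla and of 14 of proliferation 0 were called, with 1 and 0 at an unadjusted p under 0.05. Over all tested probe sets 19.3% were under 0.05, the share to set beside these counts and those of the next lists. Of 11 macrophage genes 0 were called, with 3 at an unadjusted p under 0.05, and their summed signal was 11103 to 11539 on the control and 10490 to 10939 on the CGP arrays. Of 7 lymphocyte genes 0 were called, with 1 at an unadjusted p under 0.05, and the sums were 1217 to 1267 and 1149 to 1176. Of 2 red cell genes 1 was called higher (Alas2, of haem synthesis), and the sums were 380 to 410 and 447 to 470. The sums of these 3 lists did not overlap between the groups either. Of 10 endothelial genes 0 were called, with 1 at an unadjusted p under 0.05, and their sums overlapped. The part of other tissues or cell types in the ribosomal protein values was not tested. In bulk RNA, fewer cells of a type and less RNA per cell cannot be told apart.

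Of 89 RefSeq protein-coding genes whose symbols met the rule, 29 had no probe set with 1 symbol. Of these 20 were on probe sets with several symbols, and Rpl3, Rpl11, Rpl22l1, Rpl36al, Rpl39 and Rps27 were among them. These genes were not analysed here as single genes.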

How the data were processed

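Adrenal RNA was measured on 6 Affymetrix whole-transcript arrays. The authors deposited log2 expression values of 25150 probe sets, and the submitters' processing notes name RMA and Partek without versions. RMA quantile normalises the arrays, so a shift common to all genes would have been removed. No normalisation was added. Groups came from the sample titles. Genes were named through the platform annotation (16769 probe sets had 1 symbol, 1031 several and 7350 none), and lengths came from RefSeq GRCm38.p6.

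Probe sets of a single symbol that reached 6 on the log2 scale on 3 or more of the 6 arrays (16034) entered the test, for which R 4.3.3 and its package limma 3.58.1 were used (lmFit, then eBayes, without covariates, both directions). Benjamini-Hochberg adjustment was over all of them, and an adjusted p under 0.05 was a call. Background was the 75th percentile of 126 receptor probe sets on each array. The code was tested on simulated data. The members, lists and tests were chosen with earlier results of these data known. Genes were named if they were the 6 most positive or negative members, the 3 brightest or dimmest, on a list given in advance (Rplp0, Rplp1, Rplp2, Rpsa, Rps6, Rpl5, Rpl22, Rps27l, Rpl36a, Rpl41, Fau among those measured), or among the 4 smallest adjusted p under 0.05 of another list. The called genes of the hepatocyte and adipocyte lists are given only as counts. Alternatives changed the filter, the probe sets, the scaling, the variance model and the arrays included. Arrays have no read depth, and their number limits the precision.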

Additional observations from a re-analysis of the deposited data

How the results depend on the processing

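The members stayed lower in the majority under each of the 17 alternatives run for the count by sign (43 to 57 lower). Their median stayed negative under each of the 19 run for it. Some settings left each member's difference unchanged, so they could not alter either result. These were no filter, all probe sets of the table, 1 probe set per gene, the variance trend and the replicate number as a block. The log2 minimum of 7 only took out Rpl10l. In probe sets with several symbols the median was −0.042, and leaving out each array in turn gave −0.071 to −0.048. Calls depended on the setting, and the cause was not tested. With a log2 minimum of 7 there was 1 call among the members (Rps21), 3 of the mitochondrial ribosome, 1 translation factor, 1 of biogenesis and 2 of the other TOP mRNAs. With a variance trend and robust prior there were 8, 8, 4, 3 and 2, and with array weights 3, 9, 2, 3 and 2, in the same order. Quantile normalisation gave 1 member, 2 mitochondrial genes and 1 translation factor, median centring 1 and 2, and 1 probe set per gene 2 mitochondrial genes. With all probe sets of the table, or a minimum change of 1.2-fold, there were 0 mitochondrial and 0 other TOP calls. Leaving out arrays gave 0 to 1 mitochondrial, 0 to 1 translation factor, 0 to 2 biogenesis and 0 to 2 other TOP calls, and 0 members.

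Same-numbered arrays deviated in opposite directions (correlations of −0.36, −0.17 and −0.12), and arrays of unlike number had correlations from −0.16 to 0.28. Deviations within a group sum to 0, which constrains these correlations, so they cannot show or exclude a pairing by number. With the replicate block there were 0 calls among the members (lowest adjusted p 0.222), 0 mitochondrial and 0 other TOP calls. Of 373 values of the 22 named members, 346 kept direction and side of the threshold, 11 passed it and 16 changed sign, none of them called. Settings that left a member's difference unchanged could not change its direction. Rpl5 was 0.0068 as the mean of its probe sets and 0.0031 with array weights, where Rpl10l was 0.13. Leaving out each array gave −0.23 to 0.15 for Rpl10l, −0.023 to 0.33 for Rpl14, −0.016 to 0.061 for Rpl21, −0.074 to 0.0067 for Rpl22, −0.034 to 0.012 for Rpl41, −0.048 to 0.024 for Rpl5, −0.018 to 0.072 for Rpl7l1, −0.060 to 0.11 for Rps23rg1 and −0.044 to 0.10 for Rps3a1. Quantile and median scaling changed the sign of 0 named members.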
